A study of Mus musculus with 6 samples.

Results

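A set of 10 genes of the Wnt pathway was described in the mouse sciatic nerve at postnatal day 1 (P1) and at P60: the target genes Lef1, Axin2, Tcf7 and Apcdd1 in endothelial cells, and the secreted regulators Wif1, Sfrp2, Sfrp4, Sfrp5, Rspo1 and Dkk2 across the fibroblast layers. They were taken by symbol, all 10 symbols were present once in each library, and they are 10 of 41605 annotated genes. Cells came from P0Cre:ReYFP:βAct-DsRed mice on a C57bl/6J background, in which every cell carries DsRed and Schwann cells (SCs) also carry eYFP through the P0 promoter driven Cre. DsRed+ cells were sorted from debris, a part of the eYFP+ SCs was removed at P1 only, and each suspension pooled male and female animals in equal numbers. The 3 libraries of P1 and 3 of P60 are independent biological samples run with the 10x 3′ method, which counts unique molecular identifiers (UMIs), 1 for each captured RNA molecule.

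In the canonical Wnt pathway, a ligand that binds Frizzled and LRP receptors stabilizes β-catenin, which then acts with TCF/LEF transcription factors on target genes. Lef1 and Tcf7 encode such factors, Axin2 encodes a scaffold that returns β-catenin to degradation, and Apcdd1 encodes a membrane inhibitor, so that the last pair act as negative feedback. Outside the cell, the Sfrp proteins and Wif1 bind Wnt ligands, Dkk2 binds LRP receptors, and Rspo1 raises the number of Wnt receptors at the membrane. In brain vessels the pathway is known to maintain barrier properties of endothelial cells, and in nerve both the endoneurial vessels and the perineurium are barriers.

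A total of 24337 cells was kept, 3435 to 4586 for each library, with a median of 3627 to 6840 UMIs per cell. Over all barcodes, before this filter, the libraries held 20203440 to 30334608 UMIs. Cells with more than 10% mitochondrial counts made up 9.56 to 13.6% of the P1 libraries and 2.97, 4.84 and 16.2% of P60 libraries 1, 2 and 3, so P60 library 3 stood apart, and it was also the shallowest. Cells were clustered without the 10 genes and without the other Wnt genes listed, and clusters were named from markers. The groups used were endothelial cells (631 at P1, 1674 at P60), endoneurial fibroblasts (1324 and 855), perineurial fibroblasts (1015 and 2446) and epineurial fibroblasts (2081 and 4542), beside SCs (3197 and 419), mural cells (600 and 851) and immune cells (1049 and 1388). The 9 endothelial markers summed to 5553 to 6367 UMIs per 1000000 UMIs of the group in that library (CPM) in the endothelial libraries and to 54.4 to 270 CPM in the 3 fibroblast layers. The 11 perineurial markers summed to 864 to 940 CPM in perineurial cells at P1 and 5740 to 6248 CPM at P60, and to no more than 560 CPM in the other layers. At P1 the perineurial cluster was named on 5 of these markers, while 4 passed in the endoneurial cluster and 5 in a cluster of proliferating fibroblasts. With another clustering seed the P1 perineurial cluster took no name, and the paper calls its own P1 assignments tentative. The perineurial name at P1 is thus tentative. Age and library preparation cannot be told apart here, since no label gives a batch.

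The 10 genes differed in how much was counted. Sfrp5 gave 175265 UMIs over all cells, Sfrp4 83192, Sfrp2 39100, Dkk2 7334 and Rspo1 6541. The targets were sparser, with 1631 UMIs of Lef1, 1310 of Axin2 and 796 of Tcf7, and Wif1 gave 216 and Apcdd1 28. Wif1 and Apcdd1 therefore bear statements only in the cells where they were highest. In the heatmap of all groups the genes fall in a few cell types each, with Lef1 and Axin2 in endothelial cells at P60, Tcf7 in endothelial cells of both ages, and the abundant regulators highest in perineurial or epineurial cells.

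**Figure D1:**
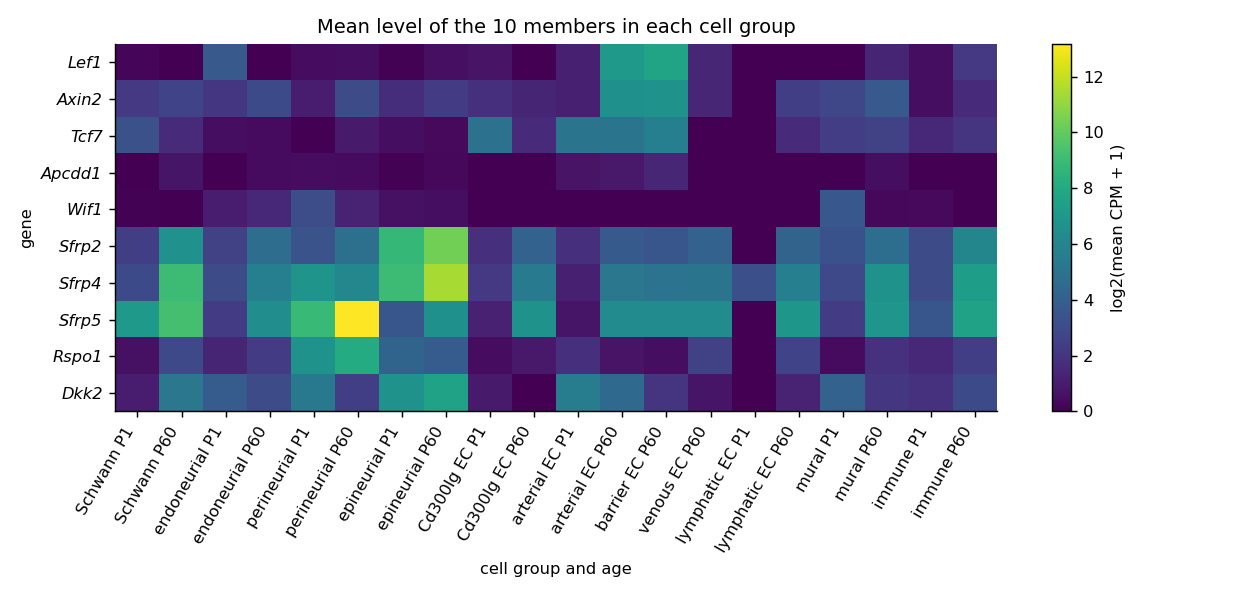
Heatmap of the 10 genes (rows) in each cell group at P1 and P60 (columns), with endothelial cells (EC) by cluster, as log2(mean CPM + 1) over 3 libraries. Lef1 and Axin2 are high in arterial and barrier endothelial cells at P60 and low in the endothelial clusters of P1, Sfrp5 and Rspo1 are highest in perineurial cells, and Sfrp2, Sfrp4 and Dkk2 are highest in epineurial cells.

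Lef1 (ENSMUSG00000027985) lies at chr3:131110471-131224356 on the plus strand of GRCm38 and Axin2 (ENSMUSG00000000142) at chr11:108920349-108950783, also on the plus strand. Tcf7 (ENSMUSG00000000782) lies at chr11:52252371-52283014 on the minus strand. The 250 bases before annotated starts of Lef1 and Axin2 are shown because both genes moved with age in the same cells and the TCF/LEF core motif can be looked for there. They are from the RefSeq promoter table for GRCm38.p6, which held 12 such windows for 8 of the 10 genes. Each reads 5′ to 3′ on the plus strand, with the core CTTTGA or its reverse complement TCAAAG in capitals where present.
Lef1, chr3:131110047-131110296: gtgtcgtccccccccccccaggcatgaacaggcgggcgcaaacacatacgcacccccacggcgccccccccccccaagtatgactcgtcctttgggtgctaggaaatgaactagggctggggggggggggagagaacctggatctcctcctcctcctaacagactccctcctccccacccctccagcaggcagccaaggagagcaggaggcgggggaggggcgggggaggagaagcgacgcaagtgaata
Lef1, internal start, chr3:131156044-131156293: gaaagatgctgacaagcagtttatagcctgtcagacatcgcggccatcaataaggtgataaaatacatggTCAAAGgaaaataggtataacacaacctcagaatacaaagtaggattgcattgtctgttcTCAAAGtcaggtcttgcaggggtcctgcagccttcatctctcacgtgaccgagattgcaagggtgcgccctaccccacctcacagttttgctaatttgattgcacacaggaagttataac
Axin2, chr11:108920099-108920348: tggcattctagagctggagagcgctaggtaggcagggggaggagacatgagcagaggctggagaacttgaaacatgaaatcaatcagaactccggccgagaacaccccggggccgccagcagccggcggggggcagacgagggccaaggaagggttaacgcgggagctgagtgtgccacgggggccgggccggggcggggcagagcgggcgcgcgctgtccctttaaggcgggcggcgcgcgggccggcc
The internal Lef1 window held 2 cores, which begin 180 and 120 bases before that start, and it was the 1 window of the 12 with a core on either strand. The core occurred in 4544 of all 32851 windows of this length (13.8%). The longer form CTTTGAT or ATCAAAG, which contains the core, occurred in 1053 (3.21%) and in none of the 12. A 3′ count does not show which start was used, and a match is a description of the letters alone.

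Lef1, which encodes a transcription factor that works with β-catenin, was nearly absent from endothelial cells at P1 and abundant at P60. Its level was 0.648, 0.585 and 1.22 CPM in the 3 P1 libraries and 145, 134 and 113 CPM in the 3 P60 libraries. All P60 libraries lay far above all P1 libraries. The share of all genes without such overlap in CPM was not computed for the whole endothelial group. The summed UMIs went from 4 to 1203, or 159.5 times per UMI counted (counting interval 62.1 to 586, at 95%). The fitted log2 change was 7.23 ± 0.28 (SE derived from the test statistic, n = 3 libraries per age, edgeR quasi-likelihood test, Benjamini-Hochberg adjusted p = 4.2e-09). With 4 UMIs at P1, the counting interval is wider than this SE implies. Of the 10 genes, 7 passed the filter on low counts in endothelial cells, and 5 of these rose and 1 fell, where 20.4% of all genes tested rose and 18.7% fell.

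Axin2, the feedback inhibitor most used as a readout of the pathway, was at 1.30, 2.92 and 1.83 CPM in the P1 endothelial libraries and at 68.7, 58.8 and 81.9 CPM at P60. The groups did not overlap, and Axin2 rose by 5.05 ± 0.28 on the log2 scale (SE, n = 3 per age, edgeR quasi-likelihood adjusted p = 5.95e-08). Tcf7, which encodes the other TCF/LEF factor among the 10, did not follow. It was at 34.3, 25.1 and 27.5 CPM at P1 and at 37.0, 36.9 and 24.6 CPM at P60, so the ages overlapped, with a log2 change of 0.18 ± 0.21 and an adjusted p of 0.521 by the same edgeR test. Apcdd1 (ENSMUSG00000071847, on chromosome 18) gave 1 UMI in endothelial cells at P1 and 9 at P60, and it did not pass the filter on low counts.

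The share of endothelial cells with at least 1 UMI gave the same order after each cell was thinned to 1500 UMIs. The share for Lef1 stood at 0.122% ± 0.111 over the P1 libraries and 14.1% ± 1.45 over those of P60 (mean and SD of 3 per age, exact permutation p = 0.1, two-sided), and the ages did not overlap, as for 47.6% of the 9356 genes compared. For Axin2 it was 0.341% ± 0.274 and 7.79% ± 1.66 (exact permutation p = 0.1), and for Tcf7 4.25% ± 0.961 and 3.54% ± 0.817 (exact permutation p = 0.6). With 3 libraries against 3 this test cannot go below 0.1. The 11 endothelial cells with fewer UMIs were left out, all from P60 library 3, and before thinning the Lef1 shares were 0.644% and 34.0%. In cell types where Lef1 was low, the thinned share at P60 was 0.0717% of perineurial and 0.0521% of epineurial cells, and the median cell had 4343 UMIs in endothelial, 6433 in perineurial and 5195 in epineurial cells.

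Within endothelial cells at P60 the target genes were high in some clusters and near 0 in others. The 5 named clusters were barrier cells (761), named from transporters of blood to nerve barrier vessels such as Slc2a1, and arterial (239), venous (258), Cd300lg+ (298) and lymphatic (118) cells. The barrier markers summed to 10950 to 12190 CPM in barrier cells and to 10520 to 12060 CPM in arterial cells, so they do not separate these clusters, and to no more than 1413 CPM in Cd300lg+ and 520 CPM in venous cells. At P1 only Cd300lg+ (409), arterial (186) and lymphatic (36) clusters took a name. The plot of endothelial clusters gives the values of Lef1, Axin2 and Tcf7 in each.

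**Figure D2:**
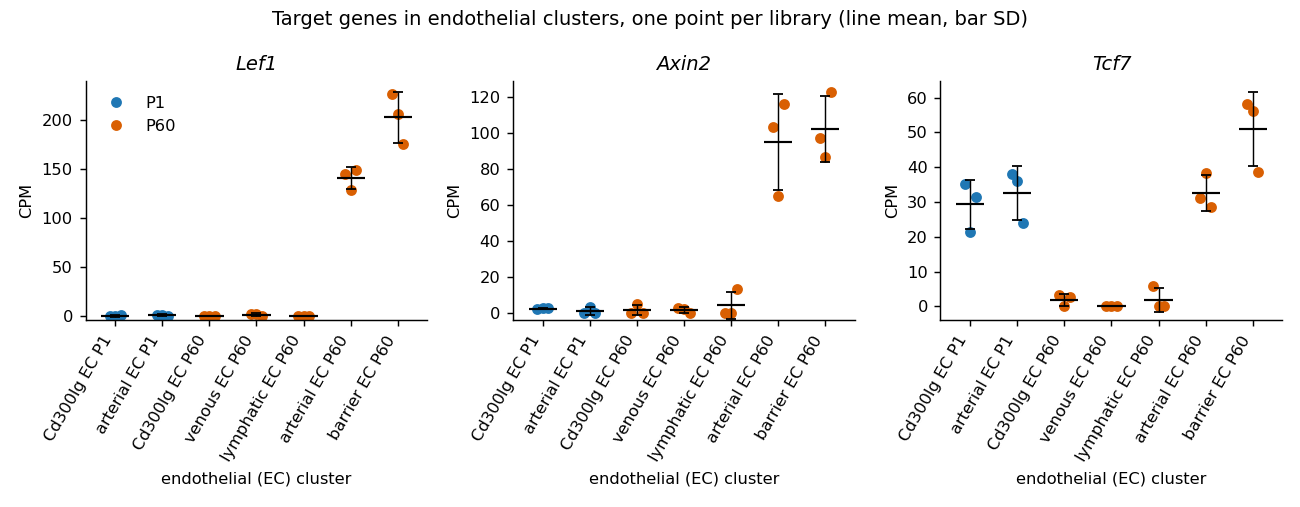
Lef1, Axin2 and Tcf7 in each endothelial cluster at P1 and P60 in CPM, with 1 point for each library and bars for the mean and SD of 3 libraries. Lef1 and Axin2 are high in the barrier and arterial clusters at P60 only, whereas Tcf7 is at a like level in the Cd300lg+ and arterial clusters of P1 and the arterial cluster of P60. The lymphatic cluster of P1, with no UMI of the 3 genes, is not drawn.

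Lef1 was at 226, 206 and 175 CPM in barrier cells and at 145, 129 and 149 CPM in arterial cells of the 3 P60 libraries. In venous cells it was at 3.01, 2.09 and 0 CPM, and no UMI was found in Cd300lg+ or lymphatic cells at P60. Barrier cells thus exceeded Cd300lg+ cells by at least 74.8-fold and lymphatic cells by at least 38.7-fold, taking 3 counts over the group as the limit, and the UMI ratio to venous cells was 121 (counting interval 33.4 to 999.8). The smaller difference between barrier and arterial cells was 0.63 ± 0.13 on the log2 scale (SE, n = 3 libraries, edgeR quasi-likelihood adjusted p = 9.0e-04), and its adjusted p was 0.0576 when the library block was dropped. Of the 10 genes, 5 were testable between clusters. Lef1, Axin2 and Tcf7 were higher in barrier cells than in Cd300lg+, venous and lymphatic cells, where 29.9, 29.9 and 37.2% of all genes were called in either direction, and Lef1 and Tcf7 were higher than in arterial cells, where 16.4% were called.

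Axin2 was at 97.5, 86.8 and 123 CPM in barrier cells and at 103, 65.3 and 116 CPM in arterial cells, and these clusters overlapped. Their difference was 0.24 ± 0.17 on the log2 scale with an edgeR adjusted p of 0.429. In Cd300lg+ cells Axin2 was at 0, 4.85 and 0 CPM, so barrier cells were higher by 5.74 ± 0.46 on the log2 scale (SE, n = 3, edgeR quasi-likelihood adjusted p = 4.3e-12). The Cd300lg+ side held 2 UMIs, and the UMI ratio of 55.9 had a counting interval of 15.4 to 463. Tcf7 was at 58.1, 56.1 and 38.7 CPM in barrier cells, at 31.0, 38.4 and 28.5 CPM in arterial cells, and at 3.15, 0 and 2.64 CPM in Cd300lg+ cells. The libraries of barrier cells lay above those of the arterial cells by a small margin, at 0.73 ± 0.23 on the log2 scale with an edgeR adjusted p of 0.028, and this call was lost without P60 library 1 (adjusted p = 0.205) or without P60 library 2 (0.137). No Tcf7 UMI was found in venous cells, so barrier cells exceeded them by at least 20.4-fold.

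Arterial and Cd300lg+ cells took a name at both ages, but the clusters of 1 name were not alike. The 7 markers of the Cd300lg+ type summed to 12060 to 12760 CPM in the P1 cluster, which held 409 of 631 endothelial cells, and to 34680 to 42080 CPM in the P60 cluster, and the 7 barrier markers summed to 3450 to 3648 CPM in arterial cells at P1 and to 10520 to 12060 CPM at P60. In arterial cells Lef1 went from 1.91, 1.80 and 0 CPM to the P60 values above, or from 2 to 191 UMIs, a ratio of 111 (counting interval 30.3 to 922). Axin2 went from 0, 3.60 and 0 CPM at P1 to its P60 arterial values, a UMI ratio of 73.7 (19.99 to 615). The arterial libraries of the ages did not overlap for either gene, as was the case for 41% of all genes compared. Tcf7 stood at 38.1, 36.0 and 23.9 CPM in arterial cells at P1, with a P60 to P1 ratio of 1.00 (0.659 to 1.53). In Cd300lg+ cells, by contrast, Tcf7 was at 35.0, 21.5 and 31.5 CPM at P1 against the 2 UMIs in all at P60, a ratio of 0.0621 (0.00740 to 0.231). The Cd300lg+ libraries of the ages did not overlap for Tcf7 (41.8% of all genes compared did not), and with no barrier or venous cluster at P1 the comparison is of clusters by name. The like totals of Tcf7 over all endothelial cells were thus held by different clusters at each age, the Cd300lg+ and arterial cells at P1 and the barrier and arterial cells at P60.

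Mural markers, which stand for pericytes and smooth muscle, rose with age in the endothelial group and were highest on average in the barrier cluster, followed by the venous cluster. All 10 had a UMI in barrier cells, and they summed to 74.8 to 124 CPM in endothelial cells at P1, 1392 to 2046 CPM at P60, and 1974 to 2931 CPM in barrier cells. Venous cells at P60 overlapped this range, at 1290 to 2004 CPM. Cd300lg+ (386 to 612), arterial (314 to 733) and lymphatic cells (90.1 to 168) were lower. Most of the sum in barrier cells was Acta2 (1318 to 1981 CPM) and Tagln (620 to 924), while the pericyte markers Rgs5 (11.1 to 15.8) and Pdgfrb (4.46 to 5.53) were low. Mural cells themselves had a mean Lef1 level of 1.59 CPM at P60, far under that of the barrier cells. Fibroblast markers in endothelial cells went from 872 to 1257 CPM at P1 to 484 to 735 CPM at P60.

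Other genes of the pathway and of the vessel barrier were read from fixed lists in the same endothelial fit. Of a list of 14 genes read for the vessel barrier, 12 were tested and all 12 rose. Their median log2 change was 2.54 against 0.01 over all genes tested. The list also held Plvap, used here as a marker of Cd300lg+ cells, so it was not made of barrier genes alone. Several listed genes, among them the organic anion transporter Slco1a4 (7.96) and the lipid transporter Mfsd2a (6.01), served to name the barrier cluster, whereas the transcription factor gene Foxq1 (7.80) did not. Of 14 other target genes, 6 were tested and 3 rose: Nkd1 (4.02), which encodes an inhibitor of Dishevelled, the receptor gene Tnfrsf19 (2.77) and Znrf3 (0.71), which encodes a ligase that removes Frizzled. Of 13 other secreted regulators, 4 were tested: Rspo3 (5.04), which encodes an R-spondin like Rspo1, and Dkk3 (1.93) rose, and Cthrc1 fell by 1.99 on the log2 scale. Among receptors, 1 of 10 tested rose and 2 fell (Lrp6 0.78, Fzd3 -0.90, Adgra2 -0.66), and among intracellular components 4 of 18 rose and 2 fell, both with a median log2 change close to that of all genes (0.02 and 0.00). Only 2 of the 20 ligand genes passed the filter, and both rose, Wnt11 (3.92) and Wnt6 (2.71).

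Secreted regulators were low in the endothelial group. Sfrp2 was at 1.30, 2.92 and 3.06 CPM at P1 and at 16.2, 8.60 and 13.1 CPM at P60. Sfrp4 was at 3.89, 2.92 and 2.45 CPM at P1 and at 47.5, 34.7 and 22.9 CPM at P60. Sfrp5 was at 0.648, 0.585 and 1.83 CPM at P1 and at 101, 110 and 52.9 CPM at P60. All 3 were called higher at P60 (log2 changes of 2.32, 3.48 and 6.36), without overlap, and at P60 each of the 5 clusters had Sfrp5, at 43.9 to 179 CPM. However, their P60 endothelial means were 0.969, 1.26 and 0.954% of those in the highest fibroblast layer. The fibroblast markers had a median of 1.11% in the same cells (range 0.268 to 2.05%), and the part of RNA from other cells in these rises was not tested. Dkk2 differed from this. At P1 its endothelial mean was 14.3% of the highest layer, against a fibroblast marker median of 2.67% (0.344 to 7.69%), and it was found in arterial cells, at 62.9, 23.4 and 51.7 CPM, against 0, 0.934 and 1.91 CPM in Cd300lg+ cells. These P1 clusters did not overlap for Dkk2, as for 29.7% of all genes compared. In arterial cells at P60 Dkk2 was at 31.0, 15.4 and 17.6 CPM, and over all endothelial cells it went from 21.4, 8.18 and 17.1 CPM to 7.17, 3.61 and 4.38 CPM, lower at P60 in every library (fell by 1.64 on the log2 scale, SE 0.37, n = 3 per age, edgeR quasi-likelihood adjusted p = 0.0042). Arterial cells were 186 of the 631 endothelial cells at P1 and 239 of 1674 at P60, and the part of this shift in the fall was not tested.

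Across the fibroblast layers each abundant regulator had 1 layer where it was highest, at both ages. Sfrp5 and Rspo1 were highest in perineurial cells, which ensheath each fascicle, and Sfrp2, Sfrp4 and Dkk2 in epineurial cells, the outer connective tissue. The endoneurial fibroblasts, which lie among the axons, were lowest or level with the lower of the others for each of these 5. Of the 10 genes, 8 could be tested between layers at P60, where perineurial and endoneurial cells differed in 2 (both higher in perineurial cells, 48.4% of all genes called), epineurial and endoneurial cells in 4 (all higher in epineurial cells, 38.1%), and epineurial and perineurial cells in 3 higher and 4 lower (64.8%). A call alone thus does not mark these genes, and their sizes are given. At P1, 8 of the 10 were again tested, and 6 were higher and 2 lower in perineurial than endoneurial cells (37.8% of all genes called), 5 higher and 1 lower in epineurial than endoneurial cells (53.7%), and 3 higher and 3 lower in epineurial than perineurial cells (40.9%).

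**Figure D3:**
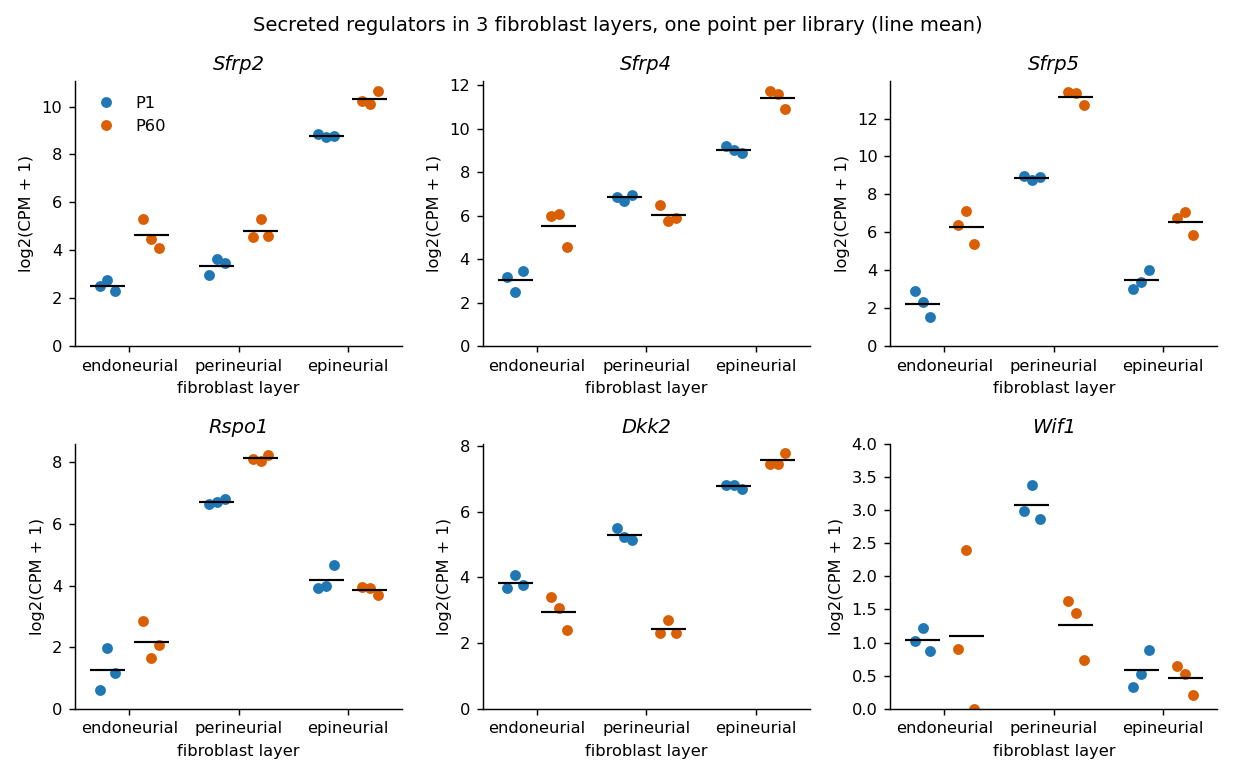
The 6 regulators in endoneurial, perineurial and epineurial cells at P1 and P60, as log2(CPM + 1) with 1 point for each library. Sfrp5 and Rspo1 peak in perineurial cells, Sfrp2, Sfrp4 and Dkk2 in epineurial cells, and the step from perineurial to epineurial cells is wider at P60 than at P1 for Sfrp4 and Dkk2.

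Sfrp5 (ENSMUSG00000018822, chr19:42197971-42202252, minus strand), which encodes a secreted decoy of Wnt ligands, was the most counted of the 10. In perineurial cells it was at 497, 435 and 485 CPM at P1 and at 10710, 10290 and 6627 CPM at P60. Every P60 library exceeded every P1 library, and P60 library 3 was the lowest of its age. The share of all genes without overlap between the ages was not computed for any fibroblast layer. The log2 change was 4.29 ± 0.19 (SE, n = 3 per age, edgeR quasi-likelihood adjusted p = 2.9e-09), and the thinned share of perineurial cells with a UMI went from 40.5% to 96.9%. In perineurial cells 7 of the 10 genes passed the filter, and 4 rose and 3 fell, where 28.5% of all genes rose and 26.8% fell. Markers of other cell types moved in this group too: the 10 mural markers, all with a UMI, summed to 375 to 420 CPM at P1 and 2859 to 3535 CPM at P60, mostly Tagln and Acta2, and Rgs5 was at 5.63 to 18.0 and 6.28 to 8.55 CPM. The 6 skeletal muscle markers went from 9.41 to 10.6 CPM to 206 to 234 CPM, with Ckm and Myod1 at 0 at both ages, and the 8 fibroblast markers from 36710 to 38970 CPM to 14110 to 18010 CPM. Their part in the perineurial changes was not tested.

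Outside the perineurium Sfrp5 was at 6.43, 3.99 and 1.88 CPM in endoneurial cells at P1 and at 82.3, 138 and 40.2 CPM at P60. In epineurial cells it was at 6.96, 9.46 and 15.4 CPM at P1 and at 107, 132 and 56.7 CPM at P60. Both rises were called (log2 changes of 4.52 and 3.16), but the P60 values overlapped those of endothelial cells (52.9 to 110 CPM). The thinned shares with a UMI at P60 were 10.6% of endoneurial, 12.1% of epineurial and 13.0% of endothelial cells, and the part of RNA from other cells in these rises was not tested. Perineurial cells exceeded endoneurial cells by 6.87 ± 0.15 on the log2 scale at P1 and by 6.73 ± 0.10 at P60 (SE, n = 3 libraries, edgeR quasi-likelihood adjusted p = 1.6e-50 at P60).

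Rspo1 (ENSMUSG00000028871, chr4:124986430-125009099, plus strand), the gene of an R-spondin that amplifies Wnt signals, shared the perineurial site with the antagonist gene Sfrp5. It was at 99.2, 104 and 110 CPM in perineurial cells at P1 and at 274, 264 and 298 CPM at P60, with no overlap (log2 change 1.42 ± 0.11, SE, n = 3 per age, edgeR quasi-likelihood adjusted p = 3.0e-07). In epineurial cells it was at 14.2, 14.7 and 24.4 CPM at P1 and at 14.4, 14.1 and 12.0 CPM at P60, where the ages overlapped (log2 change -0.44, edgeR adjusted p = 0.112). With another clustering seed Rspo1 was called lower there (log2 change -0.96, edgeR adjusted p = 0.0011). In endoneurial cells it did not exceed 6.13 CPM in any library. Perineurial cells exceeded endoneurial cells by 6.09 ± 0.20 and epineurial cells by 4.22 ± 0.08 on the log2 scale at P60.

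The perineurial cells of P60 fell into a larger cluster of 1989 cells and a smaller one of 457 cells, which had perineurial marker sums of 5850 and 6442 CPM. Rspo1 was at 303, 298 and 341 CPM in the larger cluster and at 6.23, 3.54 and 3.42 CPM in the smaller one, so nearly all of it was in the larger cluster. Sfrp5 was also lower in the smaller cluster, at 2730, 2646 and 1767 CPM against 11600, 11260 and 7342 CPM. Neither gene overlapped between the clusters, as for 34% of all genes compared. The smaller cluster had a median of 12.3% mitochondrial counts and 3893 UMIs per cell, against 3.86% and 7113 in the larger one, and the part of cell quality in the difference was not tested.

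Sfrp5 was also found in SCs at P1, without Rspo1. It was at 136, 133 and 136 CPM in the P1 SC libraries, a mean of 28.5% of the perineurial level, whereas the SC mean of Rspo1 was 0.504% of its perineurial level. Each of the 6 SC clusters of P1 had Sfrp5, with means of 113 to 178 CPM. At P60 SCs had 828, 588 and 479 CPM of Sfrp5, but also 669, 746 and 152 CPM of Sfrp4, and fibroblast markers stood at a median of 16.2% of their level in the highest layer (2.49 to 23.5%) in these 419 cells. The part of RNA from other cells in the SC values was not tested. Of the 7 genes tested in SCs 5 rose and none fell, where 23.4% of all genes rose and 20.6% fell, and the 5 were Sfrp2, Sfrp4, Sfrp5, Rspo1 and Dkk2. In SCs Sfrp2 was at 3.41 to 5.59 CPM at P1 and at 49.3 to 151 CPM at P60, Sfrp4 at 5.18 to 7.56 CPM at P1, and Dkk2 at 0.856 to 1.36 CPM at P1 and 18.5 to 52.2 CPM at P60. In mural cells 3 of 4 rose (Sfrp2, Sfrp4 and Sfrp5) and Dkk2 fell, where 17.9% of all genes rose and 15.8% fell, and in immune cells the same 3 Sfrp genes were tested and rose, where 20.4% of all genes rose and 17.2% fell. From P1 to P60 the mural libraries went from 5.50 to 15.2 CPM to 19.8 to 33.3 CPM for Sfrp2, from 0.917 to 13.5 CPM to 31.9 to 227 CPM for Sfrp4 and from 1.83 to 6.50 CPM to 73.5 to 172 CPM for Sfrp5. Mural Dkk2 was at 18.4, 15.4 and 16.5 CPM at P1 and at 5.33, 0 and 4.47 CPM at P60, and mural Axin2, which was not tested, at 3.67 to 9.75 CPM and 9.31 to 13.4 CPM. The ages overlapped only for Axin2 among these 5, and the share of all genes without overlap was not computed for mural cells. The immune libraries held 2.21 to 13.0 CPM of Sfrp2 at P1 and 28.7 to 118 CPM at P60, 1.47 to 13.0 and 113 to 234 CPM of Sfrp4, and up to 15.5 CPM at P1 and 96.4 to 317 CPM at P60 of Sfrp5. Immune Dkk2 was not tested and reached 11.3 CPM in 1 library of P60. The thinned share of cells with an Sfrp5 UMI at P60 was 13.5% of mural and 16.5% of immune cells, beside the 13.0% of endothelial cells. Proliferating fibroblasts, a cluster of 538 cells found at P1 only, had 285, 257 and 242 CPM of Sfrp5 and 27.3, 19.2 and 14.9 CPM of Rspo1. The plot of Sfrp5 against Rspo1 sets perineurial and SC clusters beside endothelial, endoneurial and epineurial cells. Mural, immune and proliferating cells are not drawn there.

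**Figure D4:**
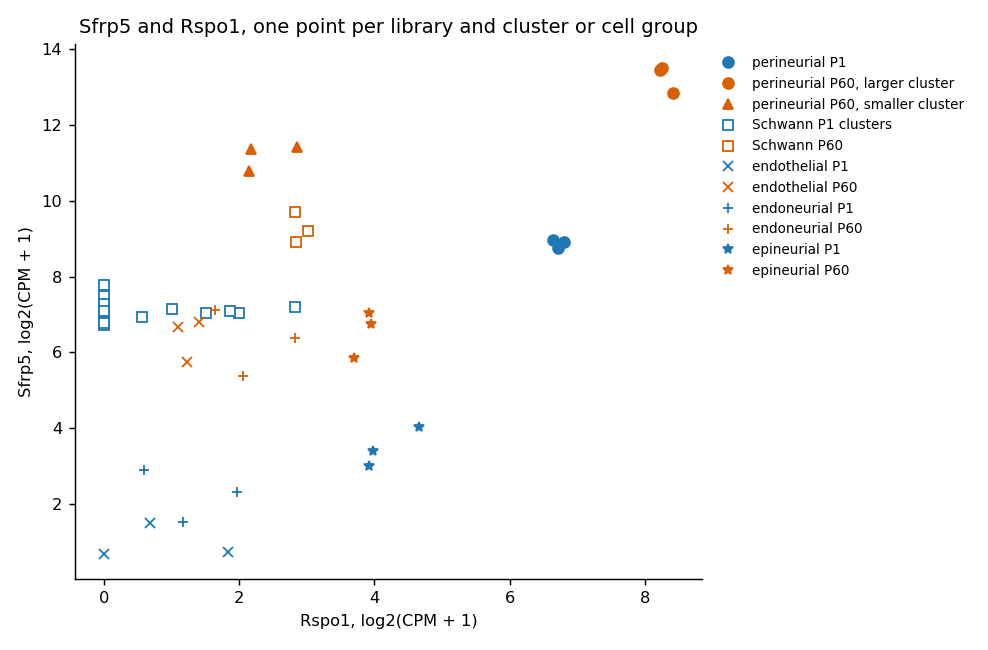
Sfrp5 against Rspo1, both as log2(CPM + 1), with 1 point for each library of a cell group or cluster. Perineurial points are high on both axes, P1 Schwann cell points are high for Sfrp5 only, and the smaller P60 perineurial cluster lies low for Rspo1.

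Sfrp2 (ENSMUSG00000027996, chr3:83766321-83774316, plus strand), also a secreted Wnt-binding protein gene, was an epineurial gene at both ages. It was at 462, 419 and 439 CPM in epineurial cells at P1 and at 1204, 1111 and 1605 CPM at P60, without overlap (log2 change 1.52 ± 0.13, SE, n = 3 per age, edgeR quasi-likelihood adjusted p = 5.7e-06). Of the 6 genes that passed the filter in epineurial cells 4 rose and none fell, where 24.6% of all genes rose and 22.9% fell, and Rspo1 and Axin2 were the ones not called. Sfrp2 was at no more than 11.4 CPM in any endoneurial or perineurial library of P1 and 15.9 to 38.5 CPM at P60. Its thinned shares at P60 were 1.99% of endoneurial, 2.51% of perineurial and 2.18% of endothelial cells, so the inner layers, where the rises of 2.52 and 1.60 on the log2 scale were called, were near endothelial cells in this share. The part of RNA from other cells was not tested. Epineurial cells exceeded perineurial cells by 5.70 ± 0.15 at P1 and 5.55 ± 0.09 at P60 on the log2 scale.

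Sfrp4 (ENSMUSG00000021319, chr13:19623104-19632994, plus strand) showed opposite changes in neighbouring layers. In epineurial cells it was at 578, 522 and 470 CPM at P1 and at 3381, 3073 and 1888 CPM at P60, a log2 change of 2.37 ± 0.20 (SE, n = 3 per age, edgeR quasi-likelihood adjusted p = 5.9e-06). In perineurial cells it was at 115, 102 and 123 CPM at P1 and at 88.2, 52.5 and 58.7 CPM at P60, where it fell by 0.77 on the log2 scale (SE of 0.18, edgeR quasi-likelihood adjusted p = 0.0030). No P60 library overlapped with a P1 library in either layer, where the share of all genes without overlap was not computed. At P60 the thinned share with an Sfrp4 UMI was 6.54% of perineurial, 5.14% of endoneurial and 5.66% of endothelial cells, whereas at P1 it was 10.8% of perineurial and 0.570% of endothelial cells. The step from perineurial to epineurial cells thus grew from 2.35 ± 0.08 at P1 to 5.54 ± 0.08 at P60 on the log2 scale.

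Dkk2 (ENSMUSG00000028031, chr3:132085292-132180304, plus strand), whose product acts on LRP receptors, moved as Sfrp4 did in the epineurial and perineurial layers and in SCs. In other groups the directions differed, since Sfrp4 was called higher at P60 in endoneurial, endothelial and mural cells (2.83, 3.48 and 4.04 on the log2 scale) and the log2 changes of Dkk2 there were -0.79, -1.64 and -2.11. It was at 111, 112 and 103 CPM in epineurial cells at P1 and at 176, 175 and 222 CPM at P60 (log2 change 0.76 ± 0.12, SE, n = 3 per age, edgeR quasi-likelihood adjusted p = 4.3e-04). In perineurial cells it was at 44.5, 36.5 and 34.1 CPM at P1 and at 3.97, 5.48 and 3.95 CPM at P60, where it fell by 3.05 on the log2 scale (SE of 0.21, edgeR quasi-likelihood adjusted p = 1.2e-07). Again the ages did not overlap in either layer, and the share of all genes without overlap was not computed there. In endoneurial cells the values of 11.8, 15.7 and 12.7 CPM at P1 and 9.64, 7.47 and 4.23 CPM at P60 did not overlap either, but the change did not pass (log2 change -0.79, edgeR adjusted p = 0.058). This fall was called with another clustering seed (edgeR adjusted p = 0.0072), with no filter on low counts (0.021) and without P60 library 1 (0.036). At P60 the thinned share of perineurial cells with a Dkk2 UMI, 0.461%, was under that of endothelial cells, 0.661%.

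The change with age differed between layers, tested as a layer by age term in 1 fit, for Sfrp4 (edgeR quasi-likelihood adjusted p = 3.0e-28), Dkk2 (5.2e-25), Rspo1 (2.2e-13) and Sfrp5 (3.1e-05, and 0.147 without the library block). Relative to the endoneurial change, the perineurial change of Sfrp4 was lower by 3.54 and that of Dkk2 lower by 2.15 on the log2 scale, and the epineurial change of Rspo1 was lower by 1.80. The endoneurial levels of Sfrp4 and Sfrp5 at P60, against which these terms are set, were close to those of endothelial cells. Sfrp2 was not called (adjusted p = 0.10), but it passed without P60 library 2 (0.025) or 3 (2.8e-05) and with no filter on low counts (0.0028). Over all genes 50.9% were called in this test.

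**Figure D5:**
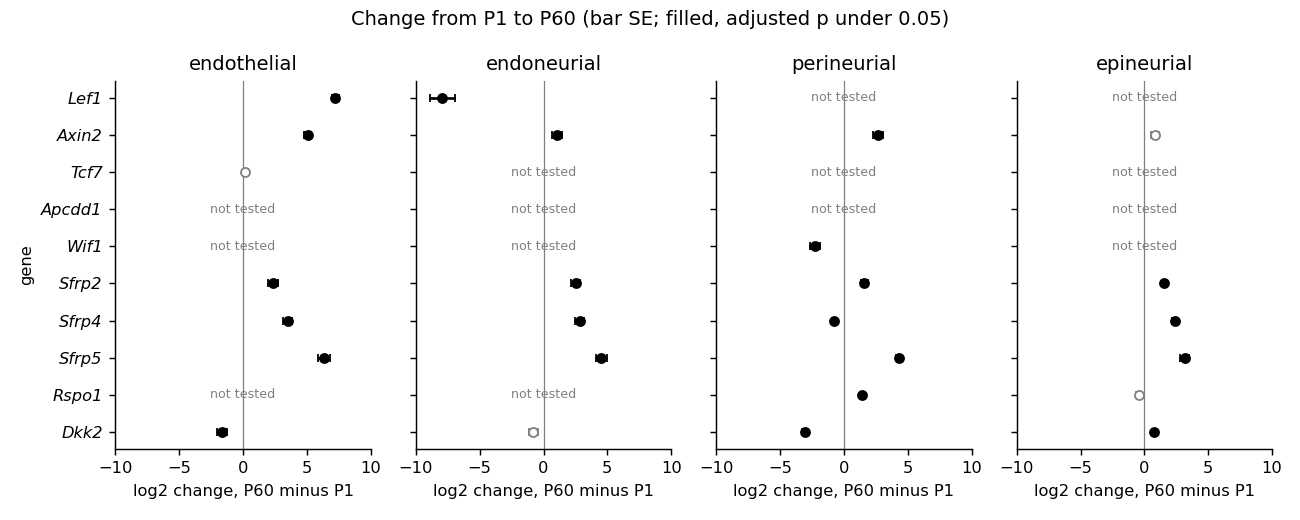
Log2 change from P1 to P60 of the 10 genes in endothelial, endoneurial, perineurial and epineurial cells, with bars for ± SE (derived from the test statistic) and filled points where the adjusted p of edgeR was under 0.05. Sfrp4 and Dkk2 lie on opposite sides of 0 in perineurial and epineurial cells, and genes that did not pass the filter on low counts are marked as not tested.

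The epineurial clusters divided the 3 epineurial regulators further. Pi16+ cells (500 at P1, 2054 at P60) were set against the other epineurial cells (1581 and 2488). At P60 Sfrp4 was at 769, 796 and 625 CPM in Pi16+ cells and at 5409, 5132 and 3477 CPM in the others, and Dkk2 was at 61.0, 66.5 and 64.3 CPM in Pi16+ cells and at 265, 274 and 419 CPM in the others. Neither gene overlapped between these clusters at P60, as for 29.4% of all genes compared. At P1 the order was in part another one, since Sfrp4 was higher in Pi16+ cells of libraries 1 and 3 and lower in library 2 (662, 450 and 508 CPM in Pi16+ cells, 549, 543 and 455 CPM in the others). Sfrp2 was higher in Pi16+ cells at P1, at 789, 747 and 734 CPM against 351, 321 and 323 CPM, and at P60 it was lower in Pi16+ cells within each of the 3 libraries by a small margin, at 1145, 1072 and 1588 CPM against 1249, 1147 and 1626 CPM. Dkk2 was lower in Pi16+ cells at P1 too, at 76.4, 56.3 and 61.8 CPM against 123, 129 and 119 CPM. At P1 37% of all genes compared did not overlap between the clusters.

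Rspo1 was low in epineurial cells and was carried by those without Pi16. It was at 1.02, 5.73 and 5.96 CPM in Pi16+ cells at P1 against 18.6, 17.4 and 31.7 CPM in the others, and at 6.95, 4.17 and 3.97 CPM at P60 against 20.2, 23.0 and 22.1 CPM. The clusters did not overlap at either age, as for 37% of all genes compared at P1 and 29.4% at P60.

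Wif1 (ENSMUSG00000020218, chr10:121033960-121100650, plus strand), the gene of a Wnt-binding inhibitor, was rare and was found mainly at P1. In perineurial cells it was at 6.93, 9.41 and 6.30 CPM at P1 and at 2.09, 1.74 and 0.658 CPM at P60, and fell by 2.26 on the log2 scale (SE 0.37, n = 3 per age, edgeR quasi-likelihood adjusted p = 2.2e-04). In mural cells it was at 9.75, 13.5 and 10.1 CPM at P1 and at 0, 0 and 0.639 CPM at P60, or 34 UMIs against 1, a ratio of 0.0283 (counting interval 0.000695 to 0.169). The ages did not overlap in either cell type, and the share of all genes without overlap was not computed for these cells. Proliferating fibroblasts had 7.21, 7.58 and 5.29 CPM at P1. No Wif1 UMI was found in endothelial cells of either age.

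The target genes were also measured in the layers. Lef1 in fibroblasts was an endoneurial gene at P1, at 12.4, 10.6 and 12.7 CPM, and no UMI was found in endoneurial cells at P60. The 149 UMIs of P1 against 0 at P60 put P60 at least 12.1-fold lower, opposite in direction to endothelial cells. In endoneurial cells 6 of the 10 genes passed the filter, and 4 rose (Axin2, Sfrp2, Sfrp4 and Sfrp5) and Lef1 fell, where 24% of all genes rose and 22.6% fell. At P1 endoneurial cells exceeded perineurial cells in Lef1 by a UMI ratio of 33.2 (11.1 to 163) and epineurial cells by 158 (27.9 to 6275). The endothelial markers summed to 229 to 237 CPM in endoneurial cells at P1 and to 54.4 to 64.8 CPM at P60, and endothelial cells of P1 themselves had a Lef1 mean of 0.818 CPM, under the endoneurial mean of 11.9 CPM.

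Axin2 in perineurial cells was at 1.09, 1.57 and 0.663 CPM at P1 and at 7.73, 6.01 and 7.67 CPM at P60, with no overlap (log2 change 2.67 ± 0.37, SE, n = 3 per age, edgeR quasi-likelihood adjusted p = 6.4e-05). In endoneurial cells its log2 change was 1.05 with an adjusted p of 0.049, a call that was lost in most alternatives, and in epineurial cells it was 0.84 with an adjusted p of 0.053. Tcf7 and Apcdd1 were too low in every layer to be tested. At P1 Tcf7 was also found in SCs, at 7.34, 7.85 and 10.5 CPM against 0, 0 and 6.17 CPM at P60 (edgeR adjusted p = 0.068). It was called lower at P60 with no filter on low counts (edgeR adjusted p = 0.0188) and without P60 library 3 (0.00796). The call was also gained without cells over 10% mitochondrial counts (0.0205) and with a replicate block (0.042).

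Around these genes, the lists of pathway genes moved in each layer as follows. The counts are read against 28.5% higher and 26.8% lower over all genes in perineurial cells, 24.6% and 22.9% in epineurial cells and 24% and 22.6% in endoneurial cells. In perineurial cells 8 of 20 ligand genes were tested, of which 5 rose, led by Wnt10a (6.36), Wnt10b (4.29) and Wnt2b (3.47), and 3 fell, Wnt2 (-4.45), Wnt5b (-3.41) and Wnt5a (-2.21). Wnt6 also rose there, from a mean of 48.3 CPM at P1 to 506 CPM at P60, and its P60 means were 12.8 CPM in endoneurial, 8.10 CPM in epineurial and 7.02 CPM in endothelial cells, where it was also called higher. The part of RNA from perineurial cells in those groups was not tested. All 4 other secreted regulators tested there fell, led by Cthrc1 (-8.97), Sostdc1 (-2.75) and Sfrp1 (-1.43). Among 16 receptors 7 rose, led by Fzd4 (2.41), and 3 fell, led by Ror2 (-2.45). Among 8 other targets 5 rose, led by Dact2 (3.64) and Kremen2 (2.86), and 2 fell, Ccnd1 (-1.81) and Nkd1 (-0.75).

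In epineurial cells 5 of 6 other secreted regulators fell, led by Cthrc1 (-5.23), Rspo2 (-4.85) and Sostdc1 (-3.67), and none rose. The median log2 change of these 6 was -2.33 against 0.02 over all genes. Of 8 ligand genes 4 rose, led by Wnt1 (1.46), Wnt10b (1.40) and Wnt6 (1.34), and 2 fell, Wnt9a (-0.67) and Wnt2 (-0.49). Among 18 receptors 5 rose and 7 fell, and among 9 other targets 4 rose, led by Dact2 (3.18) and Nkd2 (3.17), and 3 fell, led by Nkd1 (-1.94). In endoneurial cells 3 of 4 other secreted regulators fell, led by Cthrc1 (-4.03), and none rose, and among ligand genes Wnt6 (2.95) and Wnt5a (2.38) rose and Wnt5b fell. Cthrc1, which encodes a collagen-associated protein that favours noncanonical Wnt signals, was thus lower at P60 in all 3 layers.

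The genes with the most alike pattern were ranked by Pearson r of log2(mean CPM + 1) across 20 combinations of cell type and age, among 12836 genes, as a description in which the points share libraries. For Lef1 it was Gm42449 (r = 0.949), a transcript that lies within a Lef1 intron on the same strand, followed by Gm609 (0.93). For Axin2 it was Usp54 (0.887) and for Tcf7 E230034D01Rik (0.824). The leading genes of Apcdd1 (Slco1a4, 0.834) and Wif1 (Cpa1, 0.836) rested on 28 and 216 UMIs of these members over all cells. With so few counts these 2 ranks bear no statement on pattern. For Sfrp5 the most alike was the ligand gene Wnt6 (0.91), and for Rspo1 it was Bmp3 (0.936), a gene of the TGF-β superfamily. Sfrp2 went with Dpt (0.949) and Cilp (0.941), both genes of matrix proteins, and with Sfrp4 (0.912), and Sfrp4 with Cilp (0.93) and Pi16 (0.925). Epineurial cells were not divided in this ranking, and within them at P60 Sfrp4 was lower in Pi16+ cells than in the others. Dkk2 had the lowest leading value among the regulators, with Antxr1 (0.827).

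Overlapping annotations touch several of these counts. Antisense transcripts overlap exons of Lef1 (Gm43352), Axin2 (Gm11670), Tcf7 (A630014C17Rik), Sfrp2 (Gm26771) and Rspo1 (Gm12930), and the long noncoding RNA Gm26551 overlaps exons of Tcf7 on the same strand, so the Tcf7 counts may lack reads shared with it.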

How the data were processed

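Single cells of 6 libraries, 3 of P1 and 3 of P60 nerve, were analysed from the UMI counts deposited by the authors, who per the labels' processing notes used Cell Ranger 2.0.2 with GRCm38.p5 on 10x v2 3′ libraries. These counts per gene and cell were not normalized. Cells with 500 to 5000 genes were kept. Each age was clustered in Seurat 5.3.0 (R 4.3.3, log normalization to 10000, 10 principal components, 30 neighbours, resolution 0.5 at P1 and 0.4 at P60, 0.3 within groups), leaving the 10 genes and the other Wnt lists out of the variable genes. A cluster was named from at least 3 markers. Clusters with markers of several classes (612 cells at P1, 427 at P60) entered no group. Of 1226 fibroblasts of P1 in clusters without a layer name, 538 were proliferating and are given as such, and the others entered no group. No separate doublet caller was run. Between 14 and 33 barcodes were shared by any pair of libraries.

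Counts were summed per library and group and tested with the quasi-likelihood test of edgeR 4.0.16 (TMM, filterByExpr), with Benjamini-Hochberg adjustment over all genes at 0.05. Contrasts of layers and of endothelial clusters had library as a block. Fits were tested on simulated data. Each SE of a log2 change was derived from the test, as the size of the change divided by the square root of its F statistic. It is not a standard error given by the fit, and for genes with few UMIs in 1 group it can understate counting error. CPM are UMIs per 1000000 UMIs of a group in a library. Where a gene was at 0, a fold is against 3 counts over the group, and ratios of few UMIs have exact binomial intervals (95%), which cover counting error only. Shares of cells were the expected shares after thinning each cell to 1500 UMIs. The shares of genes without overlap were taken over genes above a minimum level only. These were 7983 to 8951 genes for CPM, with a mean of at least 10 CPM in either group, and 9356 genes for shares of cells. Alternatives were DESeq2 1.42.0, other normalization, filters, clusterings and blocks, and each library left out.

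All 10 genes were named throughout, with values where at least 10 CPM was reached, per library in the groups the text turns on and as ranges over libraries elsewhere. Of the other lists the 3 largest called changes in each direction were named, shortened in the text where a list added little, and Wnt6 in perineurial cells was added after its values were seen. For alike patterns, the leading genes with at least 10 CPM were taken. The genes and lists were chosen with earlier results of these data known.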

Additional observations from a re-analysis of the deposited data

Results flagged for a closer look

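For 7 of the 8 genes tested, the change from P1 to P60 differed between endoneurial, perineurial and epineurial fibroblasts by the test of the layer by age terms (edgeR quasi-likelihood test, 3 libraries per age, Benjamini-Hochberg adjusted over all genes, of which 50.9% passed). The adjusted p was 3.0e-28 for Sfrp4, with a perineurial change 3.54 lower and an epineurial change 0.35 lower than the endoneurial one on the log2 scale. It was 5.2e-25 for Dkk2, with a perineurial change 2.15 lower and an epineurial change 1.65 higher. For Rspo1 it was 2.2e-13, with a perineurial change 0.04 higher and an epineurial change 1.80 lower. For Sfrp5 it was 3.1e-05, with a perineurial change 0.14 lower and an epineurial change 1.30 lower.

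The other 3 genes were at low counts. The adjusted p was 1.2e-05 for Lef1, where the endoneurial cells of P60 held no UMI, so the size of the terms depends on the prior count and is not given. It was 0.012 for Wif1, with a perineurial change 2.95 lower and an epineurial change 1.09 lower than the endoneurial one, which at P60 rested on 5 UMIs, and the call was lost without P60 library 2 (adjusted p = 0.247). It was 0.017 for Axin2, with a perineurial change 1.66 higher and an epineurial change 0.13 lower, and it was lost without P1 library 3 (0.165), without P60 library 1 (0.0598) and without mixed cells (0.0987). No group of 4 or more libraries was present, so single libraries were not tested for standing apart.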

How the results depend on the processing

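Among the 85 called results for single genes, 1067 of 1097 values under the alternatives kept the call, 30 lost it and none turned direction. In every setting that gave a value, 74 results kept the call. Settings without a value for a result were not counted, as for perineurial age changes and P1 layer contrasts with another seed. The 31 results not called passed in 28 values. The number of the 10 genes called in the age change in immune cells was 3, and 6 with no filter on low counts. The difference in the share of endothelial cells with a UMI (P60 minus P1, in percentage points) was 13.9 for Lef1, 7.45 for Axin2, -0.71 for Tcf7 and 0.12 for Apcdd1. With no thinning it was 33.4, 22.0, -4.51 and 0.340, and with thinning to 1000 UMIs 9.82 for Lef1 and 5.12 for Axin2.

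With 1 library left out at a time, these shares ranged from 13.1 to 14.5 for Lef1, from 6.56 to 8.20 for Axin2, from -1.07 to -0.163 for Tcf7 and from 0.0589 to 0.155 for Apcdd1. The counts of genes called ranged from 6 to 6 in endothelial, 4 to 6 in endoneurial, 7 to 7 in perineurial, 4 to 5 in epineurial, 4 to 6 in Schwann, 4 to 6 in mural and 3 to 4 in immune cells. They ranged from 17 to 20 between layers at P1, 12 to 15 between layers at P60, 6 to 8 for layer by age and 11 to 12 between endothelial clusters. The number of all genes called in Schwann cells was 5085, and 3150, 3034 and 3068 without P1 library 1, 2 or 3, and that between endothelial clusters was 4987 with no library block.

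The age change of Axin2 in endoneurial cells was lost under 9 settings, as with the replicate block (adjusted p = 0.0666). Without the library block, the layer by age term of Sfrp5 had an adjusted p of 0.147. That of Wif1 was 0.247 without P60 library 2, and those of Axin2 were 0.165 without P1 library 3, 0.0598 without P60 library 1 and 0.0987 without mixed cells. Sfrp2 in perineurial against endoneurial cells at P1 was lost without any 1 of the P1 libraries (0.0709, 0.184 and 0.301), Axin2 there without P1 library 3 (0.175), and Sfrp5 in epineurial against endoneurial cells at P1 without P1 library 3 (0.0929). Axin2 in epineurial against perineurial cells at P60 was lost without P60 library 1 (0.201) or 3 (0.12), and Dkk2 in mural cells without cells over 10% mitochondrial counts (0.05). The cause was not tested.

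Replicate numbers did not pair the libraries, since the correlation of deviations lay between 0.0022 and 0.0843. With a replicate block, Axin2 in epineurial cells (adjusted p = 0.0453) and Tcf7 in Schwann cells (0.0420) gained a call, the number called in immune cells went from 3 to 4 by a gene not tested in the reported fit, and beside the Axin2 value above no other call changed. With another seed, the P1 perineurial cluster took no name, so perineurial age changes, P1 layer contrasts and layer by age terms had no value. DESeq2 and the replicate block were not run for layer and cluster contrasts. Depth limits Apcdd1 and Wif1 most.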
